A study of Rattus norvegicus with 12 samples.

Results

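The 8 genes described here encode the contractile apparatus shared by smooth muscle cells and myofibroblasts, namely *Acta2*, *Tagln*, *Cnn1*, *Myh11*, *Actg2*, *Lmod1*, *Mylk*, and the transcriptional coactivator *Myocd*. They were taken by symbol from the 25620 genes of the deposited count table, and all 8 were found in both the count table and the FPKM table (fragments divided by gene length and sequencing depth) and passed the filter on low counts. The data come from RNA sequencing of dorsal skin wounds in male SD rats made diabetic with streptozotocin (STZ), with 1 library for each of 4 treatments on day 3, 7, and 14, 12 libraries in all. The control wounds received normal saline, and the others received the dried mucus of the snail *Achatina fulica* (d-SMG), its sulfated glycosaminoglycan (s-GAG), or a commercial alginate dressing (Alg). All the animals carried the same chemically induced diabetes and a full-thickness punch wound, so no library represents a wound without diabetes or skin without a wound. Whether a library holds 1 animal or a pool is not stated, and the difference between 2 treatments on 1 day therefore has no replicate check.

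Smooth muscle of vessel walls and of the arrector pili contracts when myosin is phosphorylated on its light chain and pulls on actin filaments. Fibroblasts of a healing wound can acquire part of the same machinery, mainly smooth muscle α-actin, and are then called myofibroblasts, which draw the wound edges together. Late components such as smooth muscle myosin heavy chain are used as markers of mature smooth muscle rather than of myofibroblasts. Much of this program is driven by serum response factor (SRF), which binds the CArG box with myocardin or related coactivators. In bulk tissue, fewer cells of a type and less RNA per cell cannot be told apart.

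The promoter of *Acta2* is shown because it is the member whose upstream window holds CArG-like matches, the sequence class that SRF recognizes. RefSeq promoter sequences (GRCr8) matched 4 of the 8 genes, namely *Acta2*, *Cnn1*, *Actg2*, and *Mylk*, and 250 bases before the annotated start were searched on both strands. The *Acta2* window lies at chr1:241172504-241172753 on the minus strand and is written 5′ to 3′, with the CArG-like matches in capitals.
Acta2 promoter: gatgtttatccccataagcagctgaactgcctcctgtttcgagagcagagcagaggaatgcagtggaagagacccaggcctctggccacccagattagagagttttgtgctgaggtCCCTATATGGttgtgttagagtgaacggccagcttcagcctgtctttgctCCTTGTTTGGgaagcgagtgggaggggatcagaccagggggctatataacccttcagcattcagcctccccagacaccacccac
The matches lie from -134 to -125 (CCCTATATGG) and from -84 to -75 (CCTTGTTTGG), counted back from the annotated start. Both hold 1 G or C within the A and T core of the box, and no perfect CArG box was found in this window. Among all 33469 promoters of the same length, 1.5% held a perfect CArG box, 6.84% held at least 1 CArG-like match, and 0.43% held 2 or more. The windows of *Cnn1*, *Actg2*, and *Mylk* held neither form. These matches describe letters in a window and not binding in these wounds.

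The libraries held from 13748887 to 38302461 reads on genes, and the 8 genes together took 0.158% to 0.724% of the reads. The tissue, labelled as skin, varied in makeup between libraries. Markers of skeletal muscle (16 genes) took 0.707% to 16.9% of the reads, highest in d-SMG day 3 and next in Alg day 7 (13.9%), and keratinocyte markers (8 genes) took 0.00445% to 2.5%, lowest in d-SMG day 3. The 10 hair follicle keratins took 0.00115% to 0.0321% in the control libraries and 0.000322% to 0.926% in the dressed libraries. Pericyte and mural cell markers (10 genes) took 0.034% to 0.0822% and endothelial markers (10 genes) 0.0357% to 0.112%, both lowest in s-GAG day 14, and no gene of either list was at 0 in any library. The s-GAG day 14 library also stood apart by gene length, and those values are given with *Mylk*. The part of these differences in the values of the 8 genes was not tested.

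Compared per gene length, the myosin and the early actin-binding protein dominated the program, and its coactivator was the least abundant member in every library. *Myh11*, the smooth muscle myosin heavy chain, had the highest median FPKM at 344 and ranged from 127 to 699 over the 12 libraries. *Tagln* (transgelin or SM22), an actin-binding protein that appears early in smooth muscle differentiation, followed with a median of 230 FPKM and a range of 141 to 379. The order of these neighbours was not fixed, since *Myh11* was the highest in 10 of 12 libraries and *Tagln* in control day 7 and s-GAG day 14. *Acta2*, smooth muscle α-actin, and *Lmod1*, leiomodin, which nucleates actin filaments, had medians of 96.3 and 91.8 FPKM and overlapping ranges of 79.1 to 222 and 35.4 to 192. *Mylk*, the kinase that phosphorylates the myosin light chain, *Actg2*, smooth muscle γ-actin, and *Cnn1*, calponin, had medians of 24.2, 23.2, and 16.8 FPKM, and their ranges overlapped too. *Myocd* had between 0.16 and 0.52 FPKM, from 25 to 167 reads per library, below the range of every other member.

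**Figure D1:**
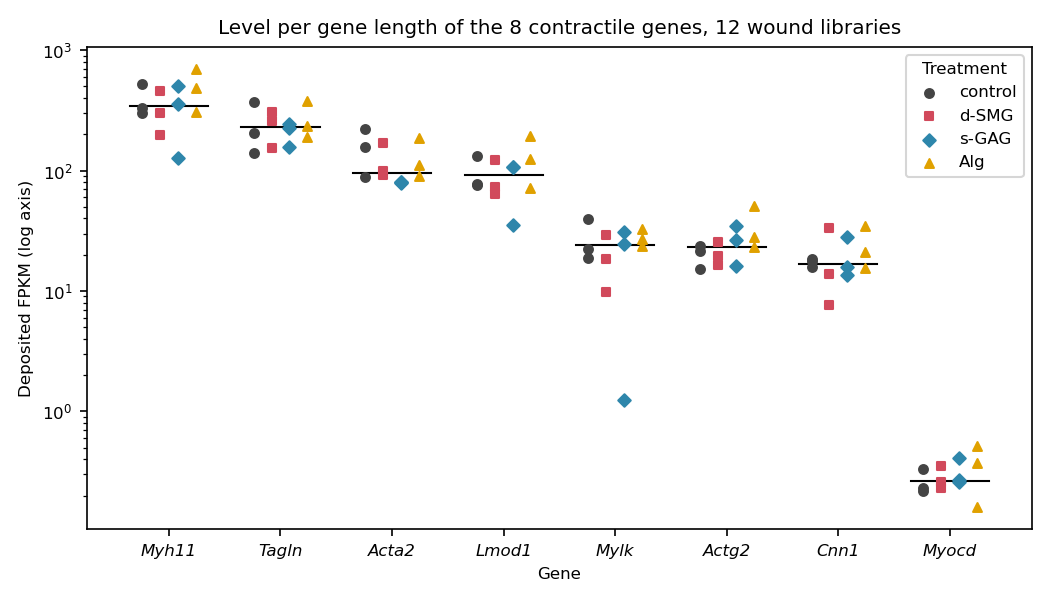
Deposited FPKM (log axis) of the 8 genes in the 12 libraries, ordered by median, where each point is 1 library, color and shape give the treatment, and the black line is the median. *Myocd* lies below all other members at 0.16 to 0.52 FPKM, and a single *Mylk* point, s-GAG day 14, lies at 1.24 FPKM.

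The spread of the members over the 12 libraries was close to that of other genes, with *Mylk* as the exception. In read counts scaled to a common library size with TMM normalization (CPM), the ratio of the highest to the lowest library was 2.67 for *Tagln*, 3.1 for *Acta2*, 3.14 for *Cnn1*, 3.24 for *Actg2*, 3.31 for *Myocd*, 3.89 for *Myh11*, and 4.42 for *Lmod1*, whereas the median over the 16110 genes tested was 4.31. For *Mylk* the ratio was 23.9, and it was 2.98 without s-GAG day 14. The SD of log2 CPM was 0.46 to 0.65 for the 7 members other than *Mylk* and 1.18 for *Mylk*, beside a median of 0.58 over all genes.

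In the control wounds *Acta2* and *Tagln* were highest on day 7, and *Myh11*, *Mylk*, and *Lmod1* on day 14. In the control group, *Acta2* had 236, 343, and 134 CPM on day 3, 7, and 14, respectively. *Tagln* followed the same course with 231, 429, and 160 CPM. Control day 7 had the highest CPM of all 12 libraries for each of them. For *Tagln* this rank depended on the TMM scaling, since in deposited FPKM Alg day 3 was higher, at 379 against 368. *Myh11* in the control group had 2293, 2596, and 3980 CPM on day 3, 7, and 14, and *Mylk* had 167, 205, and 350 CPM. *Lmod1* had 321, 337, and 562 CPM on the same days. All 5 genes were higher on day 7 than on day 3, and from day 7 to day 14 *Acta2* and *Tagln* were lower and the other 3 higher. Genes in general also differed by length between these libraries. For genes over 8 kb, the median log2 deviation from the other libraries was -0.32, 0.27, and 0.39 in control day 3, 7, and 14. It was -0.11, 0.14, and 0.15 for genes of 4 to 8 kb, and 0.23, -0.26, and -0.25 for genes of 1 to 2 kb. *Acta2* and *Tagln* fall in the shortest of these classes, *Lmod1* and *Myh11* in the middle one, and *Mylk* in the longest. The part of length in this split was not tested. *Myocd* had 2.39, 2.39, and 3.52 CPM, *Cnn1* stayed between 25.3 and 28.9 CPM, and *Actg2* had 35.3, 33.3, and 22.9 CPM.

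The dressed wounds of day 7 lay below the control day 7 level of *Acta2* and *Tagln*. *Tagln* in Alg day 3 came near that level, at 406 against 429 CPM. In the d-SMG group, *Acta2* had 188, 207, and 135 CPM on day 3, 7, and 14, and *Tagln* had 234, 239, and 316 CPM. In the s-GAG group, *Acta2* had 111, 119, and 162 CPM and *Tagln* 162, 255, and 371 CPM, both lowest on day 3 and highest on day 14. In the Alg group, *Acta2* had 263, 148, and 154 CPM and *Tagln* 406, 235, and 246 CPM, both highest on day 3. *Acta2* was thus highest on day 7 in the control and d-SMG groups, on day 14 in s-GAG, and on day 3 in Alg, and *Tagln* on day 7 in the control, day 14 in d-SMG and s-GAG, and day 3 in Alg.

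*Myh11* had 2029, 1854, and 3133 CPM in the d-SMG group, 2493, 3880, and 1292 CPM in the s-GAG group, and 5025, 4038, and 2133 CPM in the Alg group. Its highest library was Alg day 3 and its lowest s-GAG day 14. *Lmod1* had 696, 222, and 282 CPM in the d-SMG group, 424, 455, and 201 CPM in the s-GAG group, and 498, 889, and 282 CPM in the Alg group. The highest *Lmod1* levels, in Alg day 7 and d-SMG day 3, were in the libraries with the largest shares of skeletal muscle reads. *Cnn1*, which binds actin and restrains myosin, had 16.2, 17.9, and 47.2 CPM in the d-SMG group, 23.0, 43.9, and 28.1 CPM in the s-GAG group, and 51.1, 36.1, and 22.2 CPM in the Alg group. *Actg2* had 33.1, 24.2, and 34.7 CPM in the d-SMG group, 22.4, 52.1, and 53.0 CPM in the s-GAG group, and 72.5, 37.8, and 38.8 CPM in the Alg group. Of the 8 members, 7 were highest on day 3 in the Alg group and all 8 were lower on day 14 than on day 3, by 0.33 (*Mylk*) to 1.66 (*Myocd*) on the log2 scale. In the control, d-SMG, and s-GAG groups, 4, 5, and 5 of the 8 members were higher on day 14 than on day 3.

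**Figure D2:**
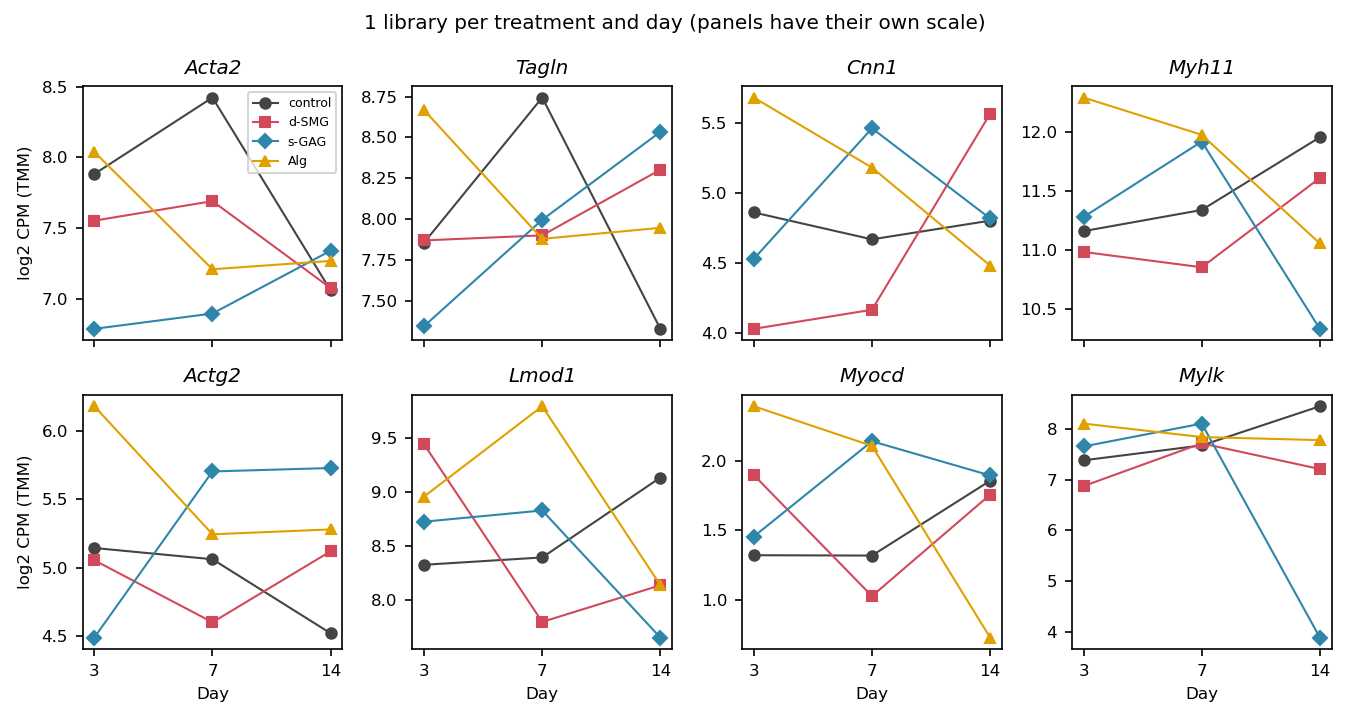
Normalized level (log2 CPM) of each gene on day 3, 7, and 14 in the 4 treatments, with 1 library per point and a separate scale for each panel. *Acta2* and *Tagln* peak in control day 7 (343 and 429 CPM), most genes start highest in Alg day 3, and *Mylk* lies at 14.7 CPM in s-GAG day 14.

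The question whether a dressing changed these genes over the time course was tested with the quasi-likelihood test of edgeR on all 12 libraries, with treatment and day as terms. No member was called at an FDR of 0.05 for d-SMG, s-GAG, Alg, or all dressings against the control, and 0% of the 16110 genes were. At an unadjusted p under 0.05, 0 of the 8 members passed in each of these comparisons, beside 1.35%, 9.26%, 3.12%, and 4.83% of all genes, respectively. The member nearest to the threshold was *Acta2* for s-GAG, with a log2 fold change of -0.78 (SE 0.41, adjusted p = 0.572). It was -1.21 (SE 0.36, adjusted p = 0.431) without s-GAG day 14, -1.35 without day 14, and -0.35 without day 7, and its adjusted p ranged from 0.431 to 0.944 over the alternatives. *Acta2* was also the lowest or second lowest member for d-SMG (-0.40, SE 0.40, adjusted p = 1) and Alg (-0.30, SE 0.41, adjusted p = 1). *Actg2* had the highest fold change for Alg, 0.69 (SE 0.43, adjusted p = 1). The median log2 fold change of the members was -0.11 for d-SMG, -0.16 for s-GAG, and 0.30 for Alg, beside -0.03, 0.00, and -0.03 over all genes. DESeq2 with the same design called no member either, and it called 9, 288, 88, and 136 genes in the same order of comparisons. The days serve as replicates in this model, so a treatment difference seen on a single day enters the error, and standard errors of 0.32 to 0.83 on the log2 scale bound what could be detected.

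*Actg2* was the single member whose Alg and control libraries did not overlap, with 72.5, 37.8, and 38.8 CPM against 35.3, 33.3, and 22.9 CPM, and 10.4% of all genes were apart in this comparison. For d-SMG, s-GAG, and all dressings against the control, 0 of the 8 members were apart, beside 3.46%, 17.3%, and 0.739% of all genes. *Actg2* and *Acta2* are paralogs of each other and of *Acta1*, the skeletal actin, and how reads matching more than one of them were counted is not stated, so their levels are uncertain to that extent. *Acta1* had from 3354 to 156956 reads per library and *Acta2* from 1932 to 5622.

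Between days, 0 of the 8 members were called on day 7 against day 3, day 14 against day 7, or day 14 against day 3, and 0% of all genes were. At an unadjusted p under 0.05 the members also counted 0, beside 1.81%, 3.12%, and 4.95% of all genes. The lowest fold change on day 14 against day 3 was that of *Lmod1*, -0.58 (SE 0.51, adjusted p = 0.906), and the highest that of *Cnn1*, 0.18 (SE 0.44, adjusted p = 0.974). The groups of 4 libraries overlapped for all 8 members in each pair of days, where 2.04%, 1.58%, and 1.6% of all genes were apart. The change from day 3 to the later days was compared between dressed and control wounds by an interaction term, and 0 members and 0% of genes were called, with 0 members and 2.25% of genes at an unadjusted p under 0.05. *Lmod1* had the lowest interaction value, -1.20 (adjusted p = 0.959). DESeq2 called 0, 7, and 39 genes between the days and 0 for the interaction, and no member.

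Each dressed library was then set beside the control library of its own day, without a test. The 3 comparisons of a day share the control library, and a ratio past 2-fold (1 on the log2 scale) is counted against the share of all genes past 2-fold. Intervals are 95% counting intervals and cover neither animals nor library preparation. Values with the trend of the ratio on gene length removed are given where members change sides of 2-fold.

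On day 3, Alg was higher than the control for all 8 members. The median log2 ratio was 0.81, beside 0.00 over all genes, and 3 of the 8 were past 2-fold, where 18% of all genes were. These were *Myh11* at 1.13 (interval 1.12 to 1.15, 102580 against 54600 reads), *Myocd* at 1.07 (0.62 to 1.60, 105 against 57 reads), and *Actg2* at 1.04 (0.92 to 1.16). *Acta2* was the least different member at 0.16. With the length trend removed *Myh11* and *Myocd* were at 0.89 and 0.72, below 2-fold, and *Tagln* and *Cnn1* at 1.17 and 1.13, above it. *Myocd* was at 0.31 and 0.91 with FPKM at a pseudocount of 1 and 0.1. Cell markers differed between the same libraries. In Alg day 3 and control day 3, mural cell markers took 0.0714% and 0.0446% of the reads and the myofibroblast matrix list 1.27% and 0.871%. Fibroblast markers took 0.417% and 0.295% and hair follicle keratins 0.116% and 0.00115%. Lower in Alg day 3 were skeletal muscle markers, at 4.68% and 7.73%, and macrophage and neutrophil markers, at 0.0978% and 0.301%. Unlike the ratios, these shares are not TMM-scaled, and their part in the values was not tested. In d-SMG day 3, 1 member of 8 was past 2-fold beside 22.5% of genes, namely *Lmod1* at 1.12 (interval 1.07 to 1.16), and *Cnn1* was lowest at -0.83. With library size alone *Lmod1* was at 0.69 and *Cnn1* at -1.25, and with FPKM at a pseudocount of 1 they were at 0.68 and -1.16, so that *Cnn1* and not *Lmod1* was past 2-fold. Skeletal muscle markers took 16.9% of the reads in this library and 7.73% in control day 3, and the part of muscle in the *Lmod1* value was not tested. In s-GAG day 3, *Acta2* alone was past 2-fold at -1.09 (interval -1.17 to -1.02), 1 of 8 beside 23.6% of genes. With the length trend removed this value was -0.69, below 2-fold.

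On day 7, *Acta2* and *Tagln* were lower than in the control in all 3 dressed libraries. *Acta2* had log2 ratios of -0.73 in d-SMG, -1.52 in s-GAG, and -1.21 in Alg, and *Tagln* had -0.84, -0.75, and -0.87. These 6 values share the single control day 7 library, which had the highest TMM-scaled CPM for both genes. The other 6 members had values above 0 in s-GAG and Alg. In s-GAG day 7, *Myh11* had 0.58, *Lmod1* 0.44, *Mylk* 0.43, *Cnn1* 0.79, *Actg2* 0.64, and *Myocd* 0.82. In Alg day 7, *Lmod1* had 1.40 (interval 1.35 to 1.45), *Myh11* 0.64, *Myocd* 0.79, *Cnn1* 0.51, *Actg2* 0.18, and *Mylk* 0.17. *Lmod1* was thus the single member past 2-fold above the control on day 7. In d-SMG day 7, 7 of the 8 members were lower than in the control, with a median of -0.49 beside -0.04 over all genes, and *Mylk* was at 0.04. Under library size alone *Myocd* in this library went from -0.29 to 0.05. The members past 2-fold on day 7 numbered 0 of 8 in d-SMG (11.4% of genes), 1 in s-GAG (*Acta2*, 23.9%), and 2 in Alg (*Acta2* and *Lmod1*, 23%). In control day 7, the 15 genes of the myofibroblast matrix list, such as *Postn* and *Col1a1*, took 5.5% of the reads, the largest share of the 12 libraries, and mural cell markers took 0.0805%, endothelial markers 0.0939%, and fibroblast markers 0.898%. In d-SMG day 7, where *Acta2* and *Tagln* were lower, these 3 lists took larger shares, at 0.0822%, 0.112%, and 1.1%. The matrix list took 4.14% there. In s-GAG and Alg day 7, where both genes were also lower, mural cell markers took 0.0482% and 0.0495% and endothelial markers 0.058% and 0.0483%. Fibroblast markers took 0.326% and 0.299% and the matrix list 1.03% and 1.36%, all below control day 7. These shares are not TMM-scaled, unlike the ratios. With the TMM factors of 1.26 in d-SMG and 0.982 in control day 7, d-SMG lies below the control for the mural, endothelial, and fibroblast lists. The part of these cells in the *Acta2* and *Tagln* values was not tested.

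On day 14 the direction against the control was reversed for *Tagln*. *Tagln* had log2 ratios of 0.98 in d-SMG, 1.21 in s-GAG, and 0.62 in Alg, and *Actg2* had 0.60, 1.21, and 0.76. *Myh11*, by contrast, had -0.35, -1.62, and -0.90, *Lmod1* had -0.998, -1.48, and -0.997, and *Mylk* had -1.24, -4.57, and -0.67. All these values share the single control day 14 library. It was the lowest of the 12 libraries for *Tagln* (160 CPM) and the highest for *Mylk* (350 CPM). *Acta2* was close to the control at 0.02, 0.28, and 0.21, but this changed with the scaling and with gene length. The s-GAG value was -0.17 under library size alone, the d-SMG value was -0.04 with TMM without skeletal muscle genes, and the 3 values were -0.28, -0.78, and 0.11 with the length trend removed. The members higher and lower than the control on day 14 also differed in length. *Tagln* and *Actg2* have lengths of 1.15 and 1.53 kb as implied by the counts and FPKM, against 4.31 kb for *Lmod1*, 7.7 kb for *Myh11*, and 9.0 kb for *Mylk*. In control day 14, the median log2 deviation from the mean of the other libraries was -0.25 for genes of 1 to 2 kb. It was 0.15 for genes of 4 to 8 kb and 0.39 for genes over 8 kb. The members past 2-fold were 1 of 8 in d-SMG (*Mylk*, beside 27% of genes), 5 of 8 in s-GAG (56.3%), and 1 of 8 in Alg (*Myocd*, 25 against 72 reads, beside 19.8%). With the length trend removed *Mylk* in d-SMG was at -0.87 and *Myocd* in Alg at -0.95, both below 2-fold.

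**Figure D3:**
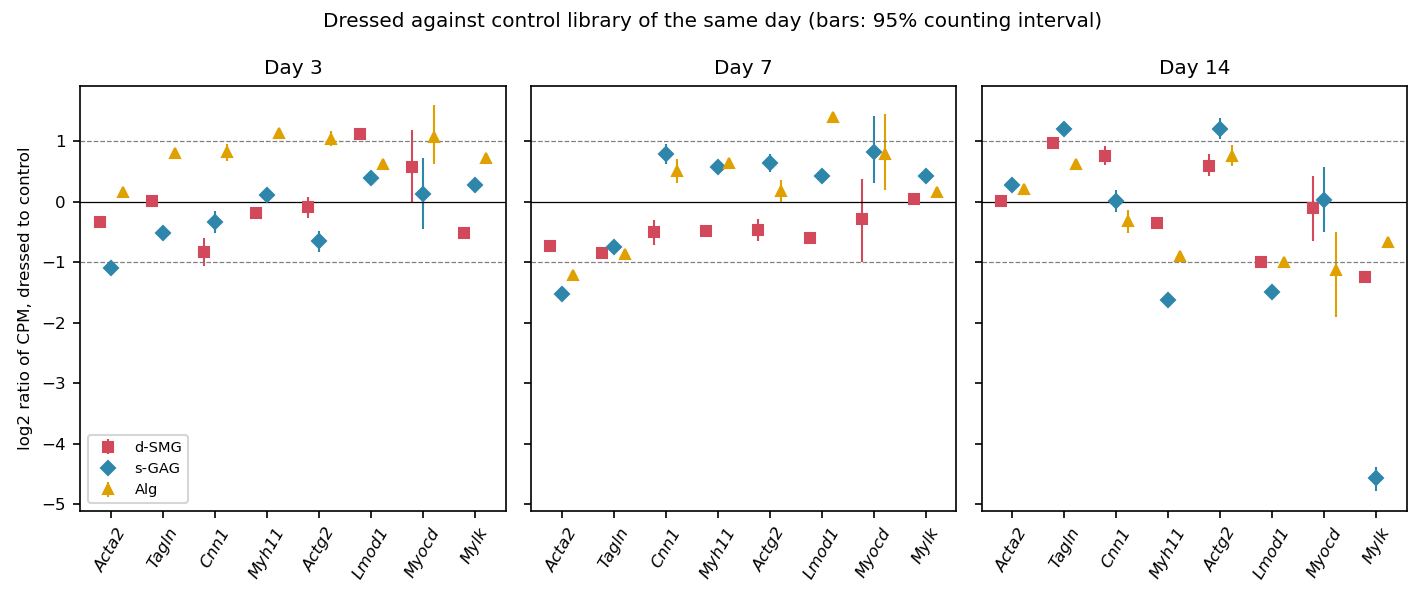
Log2 ratio of CPM in each dressed library to the control library of the same day for the 8 genes, with 95% counting intervals as bars and dashed lines at 2-fold. On day 7 *Acta2* and *Tagln* lie below 0 in all 3 dressings, on day 14 *Tagln* and *Actg2* lie above 0 and *Myh11*, *Lmod1*, and *Mylk* below, and *Mylk* in s-GAG day 14 lies at -4.57.

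The *Mylk* value of s-GAG day 14 was the most extreme among the members. *Mylk* had 215 reads there, or 10.9 CPM before TMM scaling (exact 95% interval 9.49 to 12.5), and 1460 to 10723 reads in the other libraries. It was 23.8-fold lower than in control day 14 (7178 reads), the library with the highest *Mylk* CPM. Its log2 CPM lay -3.83 from the mean of the other libraries, with 84 of 16110 genes lower still. Long genes were low in this library in general. The median deviation was 1.49 for genes under 1 kb, 0.88 for 1 to 2 kb, -0.49 for 4 to 8 kb, and -0.88 for genes over 8 kb. The difference between the longest and the shortest class was -2.38 in this library and between -0.57 and 0.81 in the other 11. *Myh11* and *Lmod1* lay at -1.16 and -1.05, whereas *Myocd*, the longest member at 10.6 kb, lay at 0.26 with 53 reads.

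Removing the trend of the log2 ratio on gene length, an alternative chosen after seeing the data, left *Mylk* at -3.44 against control day 14. In the same library *Tagln* moved from 1.21 to -0.15, *Actg2* from 1.21 to 0.15, *Acta2* from 0.28 to -0.78, and *Cnn1* from 0.02 to -1.0025. Among the long members *Myh11* moved from -1.62 to -0.61, *Lmod1* from -1.48 to -1.15, and *Myocd* from 0.04 to 1.26, so that *Cnn1* and *Myocd* were newly past 2-fold. In d-SMG and Alg day 14, *Tagln* stood at 0.62 and 0.50 and *Lmod1* at -0.97 and -0.98 after this step. On day 7, after this step, *Acta2* had -0.78, -1.62, and -1.38 in d-SMG, s-GAG, and Alg and *Tagln* had -0.95, -0.88, and -1.09. In control day 7 short genes were low, with a median of -0.26 for genes of 1 to 2 kb, while *Acta2* (1.52 kb) and *Tagln* lay at 1.07 and 0.78.

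**Figure D4:**
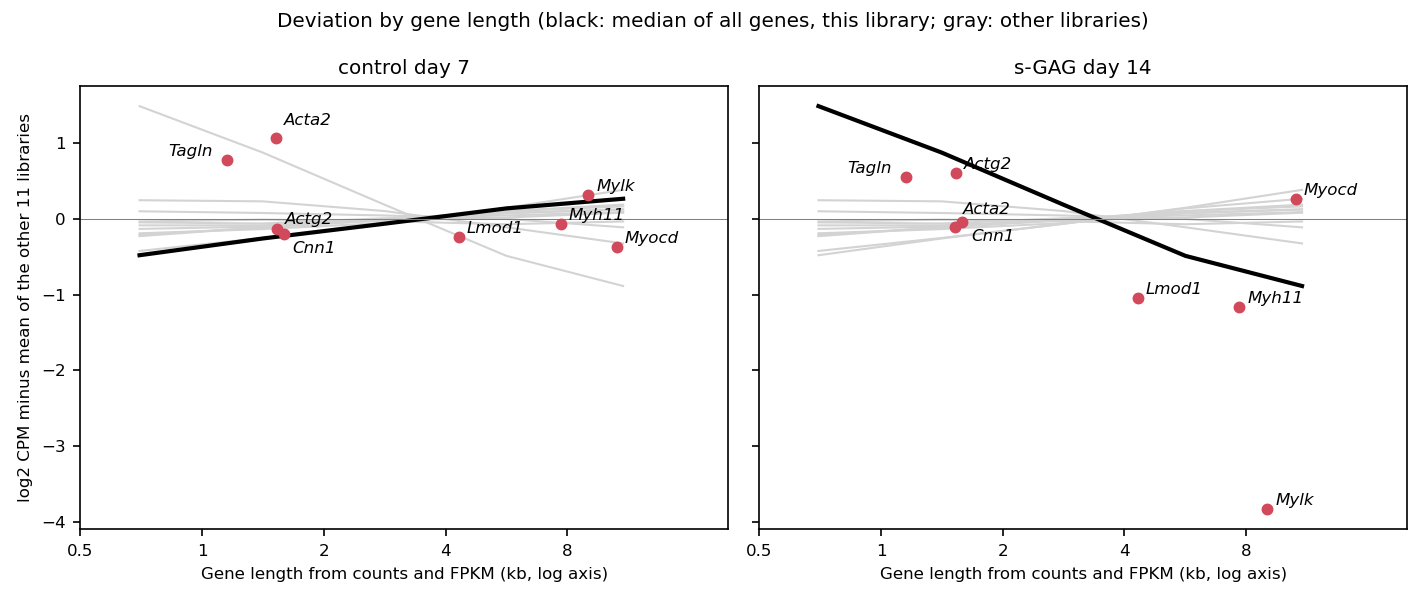
Deviation of log2 CPM from the mean of the other 11 libraries against gene length (log axis) in control day 7 and s-GAG day 14, with the 8 genes in red, the median of all genes by length class in black, and the other libraries in gray. In s-GAG day 14 the median falls from 1.49 to -0.88 with length and *Mylk* lies at -3.83, and in control day 7 *Acta2* and *Tagln* lie above the median of genes of their length.

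The ratio of 2 genes within a library does not depend on the scaling between libraries. In the control group the ratio of *Acta2* to *Myh11* in FPKM was 0.521, 0.668, and 0.17 on day 3, 7, and 14. In the d-SMG group the ratio followed the same course with 0.468, 0.564, and 0.218. In the s-GAG group it was 0.225, 0.156, and 0.635 and in the Alg group 0.265, 0.186, and 0.366, so that these groups were lowest on day 7 and highest on day 14. The s-GAG value of day 14 comes from the library in which long genes such as *Myh11* were low. *Acta2* and *Myh11* have lengths of 1.52 and 7.7 kb, and the control libraries differed by length too. For genes of 1 to 2 kb, the median log2 deviation was 0.23, -0.26, and -0.25 in control day 3, 7, and 14. It was -0.11, 0.14, and 0.15 for genes of 4 to 8 kb. The part of length in the course of the ratio was not tested. Over the 4 treatments, the log2 ratio of reads of *Acta2* to *Myh11* was -4.05 ± 0.84 (SD, n = 4) on day 14 and -3.87 ± 0.60 on day 3. The difference of -0.19 was within this spread (two-sided exact permutation test, p = 0.714, where 0.0286 is the smallest p that 4 against 4 allows). The log2 ratio of *Tagln* to *Myh11* was -3.21 ± 1.16 on day 14 and -3.50 ± 0.36 on day 3, a difference of 0.28 (exact permutation p = 0.686). Both tests ignored the pairing of libraries by treatment. The sign of both differences depended on single treatments, since the first was 0.29 without the control and 0.12 without d-SMG, and the second was -0.33 without s-GAG.

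The members were also compared in pairs across the 12 libraries. Of 28 pairs, 18 had a positive Pearson's r, and the median r was 0.20. After adjustment over the 28 pairs 1 passed 0.05, *Myh11* with *Mylk* (r = 0.73, permutation p = 0.00141, adjusted p = 0.0395), while its Spearman's rho of 0.70 did not (permutation p = 0.0148, adjusted p = 0.197). Without the 2 libraries farthest from the median r was 0.59, and without s-GAG day 14 it was 0.64. *Tagln* with *Actg2* had an r of 0.70 (permutation p = 0.0103, adjusted p = 0.125), with a rho of 0.64 (permutation p = 0.0297, adjusted p = 0.197), and r was 0.78 without the 2 farthest libraries. *Acta2* with *Tagln* had an r of 0.64 (permutation p = 0.0263, adjusted p = 0.128) and a rho of 0.48 (permutation p = 0.121, adjusted p = 0.341). This r dropped to 0.25 without the 2 libraries farthest from the median and was 0.89 once day and treatment means were removed. *Acta2* and *Myh11*, the markers most used for myofibroblasts and mature smooth muscle, had an r of -0.09 (permutation p = 0.783, adjusted p = 0.913) and a rho of -0.19 (permutation p = 0.558, adjusted p = 0.809), and r was -0.52 without the 2 farthest libraries.

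**Figure D5:**
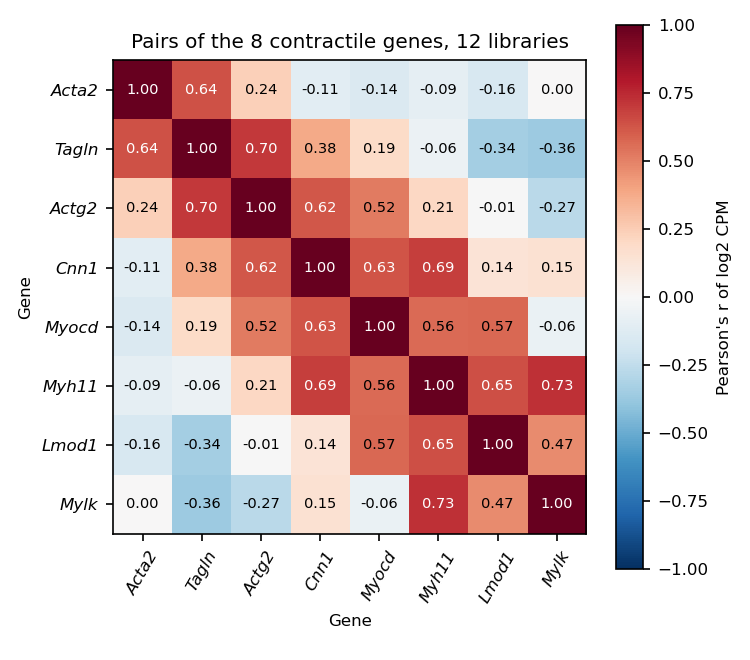
Pearson's r of log2 CPM between the 8 genes over the 12 libraries, with red for positive and blue for negative values. The highest value is *Myh11* with *Mylk* at 0.73, the lowest *Tagln* with *Mylk* at -0.36, and *Acta2* with *Myh11* is at -0.09.

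The share of skeletal muscle reads was set beside the members in a family of 8 relations, chosen after seeing the data. *Lmod1* had the highest value, with an r of 0.66 on the log2 share (permutation p = 0.021, adjusted p = 0.168), a rho of 0.55 (permutation p = 0.0675, adjusted p = 0.54), and an r of 0.54 without the 2 farthest libraries. For *Acta2*, the paralog of the muscle actin *Acta1*, r was 0.10 (permutation p = 0.766, adjusted p = 0.916), rho was 0.15 (permutation p = 0.651, adjusted p = 0.991), and r was 0.11 without the 2 farthest libraries.

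As a description over the same 12 libraries, the genes most like *Acta2* included *Eng* (r = 0.91), an endothelial coreceptor for TGF-β, *Ptprq* (0.89), and *Prss23* (0.87). Those most like *Myh11* were *Flywch1* (r = 0.95), *Impact* (0.88), *Npas2* (0.86), *Olr35* (0.86), and *Adra1a* (0.86), an adrenergic receptor of smooth muscle. With the mean of the 8 standardized members, the highest were *Gtf2ird2*, *Rabggta*, and *Als2cl* (0.78 each), then *Gfra4*, *Adcy5*, *Kcna1*, *Sptbn5*, and *Kcnmb1* (0.72 to 0.73). *Kcnmb1* encodes the smooth muscle subunit of a calcium-activated potassium channel. Symbols without a final name held 2 of the 10 places for the mean and 1 of the 5 for *Acta2*. All 10 endothelial markers had a positive r with *Acta2* (median 0.57), and so had all 10 macrophage and neutrophil markers (median 0.36). The median r of *Acta2* was 0.20 with mural cell markers (8 of 10 positive), 0.295 with fibroblast markers, and 0.21 with the myofibroblast matrix list. With keratinocyte and hair follicle markers it was -0.29 and -0.52, and 0 genes of either list had a positive r. The median r of *Acta2* with 20 other smooth muscle genes was 0.09, and that over all 16110 genes was 0.00. For *Myh11* the median r with the 10 endothelial markers was 0.11, and that with the same 20 smooth muscle genes was 0.44, highest for *Pgm5* (0.82). The libraries share depth and composition, which bear on all of these values.

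The other genes of the pathway were read from 3 lists. Of 20 further genes of the smooth muscle cytoskeleton, 0 were called in any comparison, and their median log2 fold change was -0.16 for d-SMG, -0.02 for s-GAG, and 0.00 for Alg. The largest values for all dressings were those of *Synpo2*, -0.94 (SE 1.11, adjusted p = 0.958), and *Ppp1r12b*, a subunit of myosin phosphatase, -0.91 (SE 0.67, adjusted p = 0.958). Of 20 regulators of the program, such as *Srf* and *Rock1*, 0 were called, and 5 of the 20 had values above 0 for all dressings against the control (median -0.23). *Tgfb2*, a ligand that induces myofibroblasts, had the lowest of these, -0.93 (SE 0.37, adjusted p = 0.958), and its receptor *Tgfbr1* had -0.65 (SE 0.41, adjusted p = 0.958). Of 15 genes of the myofibroblast matrix, 0 were called, while all 15 had values above 0 on day 7 against day 3 (median 0.81, beside 0.00 over all genes) and 2 of 15 had values above 0 for all dressings against the control (median -0.59, beside -0.02). *Cdh11*, a cadherin of fibroblasts, had the largest value on day 7 against day 3, 1.74 (SE 0.62, adjusted p = 0.999). The 8 members on day 7 against day 3 had a median of 0.04, with 5 of 8 above 0.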

How the data were processed

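Stranded, rRNA-depleted libraries of wound tissue were sequenced as paired reads. The authors deposited whole-number read counts of 25620 genes without normalization, and deposited FPKM values for 25524 genes, which divide by gene length and depth. The submitters' processing notes name bcl2fastq, FastQC, TopHat2, and edgeR, and the counting tool, its strand setting, and the genome build are not given in the sources used here, so overlapping and antisense genes are uncertain. A single column per table (1 in each) fitted no sample in the labels and was left out.

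Groups were taken from the labels. The 8 members and all gene lists were chosen with earlier results of these data known. Counts were normalized with TMM and filtered with filterByExpr in edgeR 4.0.16 (R 4.3.3), which kept 16110 genes, and tested with the quasi-likelihood test in a model of treatment and day with Benjamini-Hochberg adjustment at an FDR of 0.05 over all genes. The p-values measure the spread between these libraries. Single libraries were compared by log2 CPM (prior count 2) over genes with at least 10 reads in the pair, with exact Clopper-Pearson 95% intervals, which cover counting error only. At 13748887 to 38302461 reads, 3 reads corresponded to 0.0773 to 0.241 CPM. Gene length was taken from the ratio of counts to FPKM, and its trend removed by lowess (span 0.3). Correlations used 100000 permutations in scipy 1.17.1 and numpy 2.4.6 (Python 3.11.15). Figures were drawn with matplotlib 3.10.9. The test was checked on simulated data. Named genes were all members, at most 2 genes of a list by largest fold change where none was called, the 10 genes most like the mean of the members, and the 5 most like *Acta2* and *Myh11*, provisional symbols counted but not named. A gene that this rule would name is not reported here. Other genes named in passing were chosen after their values were seen. Of the keratinocyte list, 8 of 10 symbols were found in the table.

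Alternatives were RLE size factors, library size alone, TMM without skeletal muscle genes, DESeq2 1.42.0, no filter or a mean of at least 50 reads, no replicate block, the compared groups alone, FPKM with a pseudocount of 1 or 0.1 in limma 3.58.1, each day or treatment left out, unadjusted p, and for single pairs a minimum of 50 reads or none and the exact test of edgeR with a BCV of 0.3. After seeing the data, the removal of s-GAG day 14, of d-SMG day 3, and of the length trend were added.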

Additional observations from a re-analysis of the deposited data

Results flagged for a closer look

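In 24 sets of 4 libraries of the same day, a library far from the other 3 was found 2 times in TMM-scaled log2 CPM. Chance marks about 1 in 20 such sets. *Tagln* stood at 8.74 log2 CPM in control day 7, above the 3 dressed libraries, and *Myocd* stood at 0.73 log2 CPM in Alg day 14, below the other 3 with 25 reads. Both distances depended on the TMM scaling. In deposited FPKM, *Tagln* on day 7 had 368 in the control, 258 in d-SMG, 224 in s-GAG, and 191 in Alg. *Myocd* on day 14 had 0.16 in Alg, 0.26 in s-GAG, 0.33 in the control, and 0.35 in d-SMG. For both genes the gap to the nearest library was a smaller part of the spread than in TMM-scaled log2 CPM.

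For 4 members all 3 dressed libraries lay on one side of the control on one day and on the other side on another day, and the difference between these 2 days was not tested in a fit of all 12 libraries. The mean log2 ratio of the dressed libraries to the control was -1.15 on day 7 and 0.17 on day 14 for *Acta2*, and -0.82 and 0.93 on the same days for *Tagln*. It was 0.72 on day 3 and -1.16 on day 14 for *Lmod1*, for which the interaction of day and dressing without the day 7 libraries was -1.88 (SE 0.99, adjusted p = 0.991 by edgeR). For *Mylk* it was 0.21 on day 7 and -2.16 on day 14. Each mean rests on 1 control library per day, and the *Mylk* mean on day 14 includes the s-GAG value of -4.57. Control day 14 was the lowest of the 12 libraries for *Tagln* and the highest for *Mylk*. The day 14 side was not stable for *Acta2* and *Tagln*. With the length trend removed *Acta2* was at -0.28, -0.78, and 0.11 in d-SMG, s-GAG, and Alg and *Tagln* in s-GAG at -0.15, and *Acta2* was at -0.17 in s-GAG with library size alone and at -0.04 in d-SMG with TMM without skeletal muscle genes.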

How the results depend on the processing

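No member was called in the 7 comparisons of the additive model or for the interaction under any alternative run, leave-one-out fits included (0 to 0), and fits with no replicate block gave 0 called members too. The interaction was not fitted without the block or with the compared groups alone. At an unadjusted p under 0.05, 1 member passed for s-GAG with no replicate block, with FPKM at a pseudocount of 1, without day 14, and without s-GAG day 14, and 1 passed for all dressings under the last 2. Over all genes, the count of 0 for s-GAG became 288 with DESeq2, 66 without d-SMG day 3, 12 with the compared groups alone, and 1 without the filter, and that for Alg became 88 with DESeq2 and 9 with the compared groups alone. The counts of members past 2-fold were less stable. For d-SMG day 14 the count of 1 became 2 with library size alone, with TMM without skeletal muscle genes, and with FPKM at either pseudocount. It became 0 with the length trend removed. For s-GAG day 3 the count of 1 became 0 with library size alone, with FPKM at either pseudocount, and with the length trend removed. For s-GAG day 14 the count of 5 became 3 with library size alone and with FPKM at either pseudocount, and 4 with the length trend removed (*Cnn1*, *Lmod1*, *Myocd*, and *Mylk*). For Alg day 7 the count of 2 became 3 with the length trend removed (*Tagln* at -1.09), and for Alg day 3 the count of 3 became 2 with FPKM. For Alg day 14 the count of 1 became 2 with TMM without skeletal muscle genes and 0 with FPKM at either pseudocount or with the length trend removed. With the exact test at a BCV of 0.3, 2 members were past the threshold in s-GAG day 14 and 0 in the d-SMG day 3 and day 14, s-GAG day 3 and day 7, and all 3 Alg comparisons. The cause of these changes was not tested.

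Library size alone shifted the median of all genes by -0.41 in d-SMG day 3, 0.35 in d-SMG day 7, and -0.43 in s-GAG day 14, and the share of genes above the control went from 39.6%, 49.6%, and 47.8% to 17.9%, 73.4%, and 32.8%. In d-SMG day 14 and s-GAG day 3 it went from 43.7% and 57.1% to 56.1% and 67.3%. Of the 72 log2 ratios of members to control, 6 changed sign with library size alone, 6 with FPKM, 2 with TMM without skeletal muscle genes, and 10 with the length trend removed, among them *Tagln* in s-GAG day 14 (-0.15).

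Fold changes of single members, none of them called, also reversed. *Actg2* on day 7 against day 3 was 0.019 and 0.024 with FPKM at a pseudocount of 1 and 0.1, and -0.50 to 0.17 with a treatment left out. *Cnn1* on day 14 against day 7 was -0.019 and -0.021 with these FPKM values and -0.40 (without d-SMG) to 0.39 with a treatment left out. On day 14 against day 3 it was -0.35 (without d-SMG) to 0.64, and -0.12 without d-SMG day 3. The *Cnn1* interaction was -0.074 (without d-SMG) to 0.93, and -0.019 without d-SMG day 3. *Myocd* for d-SMG was -0.16 (without day 3) to 0.25, and -0.052 without d-SMG day 3. *Acta2* for Alg was -0.56 to 0.18 (without day 7), and *Mylk* for all dressings was -0.91 to 0.22 (without day 14). *Mylk* on day 14 against day 7 was -1.21 to 0.075 (without s-GAG), and 0.057 without s-GAG day 14. The ratio of *Acta2* to *Myh11*, day 14 against day 3, ranged from -0.75 to 0.29 as each treatment was left out, including 0.12 without d-SMG, and that of *Tagln* to *Myh11* from -0.33 to 0.82. *Myocd*, with 25 to 167 reads, is the member whose precision depth limits most.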
